A study of Mus musculus with 4 samples.

Results

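Classical and atypical cadherins are calcium-dependent adhesion receptors, and 10 of their genes were described: Cdh1, Cdh2, Cdh4, Cdh6, Cdh8, Cdh10, Cdh11, Cdh13, Cdh20 and Cdh22. They were found by their symbol among the 26815 entries of the authors' deposited table, with protocadherins left out, and they are 10 of its 23 entries with a numbered Cdh symbol. The list was chosen by hand with the results of this same comparison known, so the calls on its members are a description and were not tested again. The authors tested 8 of the 10, among 15315 tested entries in all, and left Cdh1 and Cdh8 untested.

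A cadherin binds mainly its own kind on the neighbouring cell, so cells that carry like cadherins adhere. Its cytoplasmic tail holds p120-catenin and beta-catenin, and alpha-catenin ties that complex to actin. Neural stem cells of the embryonic cortex are held together at the ventricular surface by adherens junctions of N-cadherin (Cdh2), while the type II cadherins mark regions and layers of the developing brain in combination.

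The cells were neural stem cells of the embryonic cortex (E14.5) of CD-1 mice, bought from a supplier and kept as a monolayer with EGF and bFGF on laminin and poly-ornithine. Poly(A) RNA was measured. All cells had received a lentivirus and were expanded in puromycin at 0.5 µg/mL. The virus carried a scrambled hairpin (SHC002) in 2 libraries and a hairpin against Foxp1 (pLKO.1_sh_ex15) in the other 2, and the duplicates were cultures of different passages. Each group rested on 1 hairpin, so an effect of that hairpin and one of its target cannot be told apart.

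The comparison asked which transcripts differ between the Foxp1 hairpin and the scrambled one. The authors deposited it as 1 Cuffdiff result per gene, between conditions coded q2 and q1, and neither the headers nor the labels tie a code to a hairpin. Every direction below is therefore q2 relative to q1. The authors' deposited table gives Foxp1, the targeted gene, a log2 fold change of -2.03 (Cuffdiff q = 0.00162). The table has no value per library, which leaves the spread between replicates and the read depth unknown. The p-values rest on 2 cultures a group and may measure only the spread between these passages. In bulk RNA, fewer cells of a type and less RNA per cell cannot be told apart.

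Of the 8 tested cadherins, 5 were lower in q2 by the authors' call (Cuffdiff q under 0.05) and 0 were higher. These were Cdh13, Cdh10, Cdh11, Cdh6 and Cdh2, lower by 2.37-fold to 1.64-fold in the authors' deposited table. The remaining 3, Cdh20, Cdh4 and Cdh22, did not pass. Among all tested entries 3.39% were called lower and 4.24% higher, or 7.63% in either direction. Since the list was drawn up with these calls known, nothing is read from the difference between those shares and the 62.5% of tested cadherins called lower. The median log2 fold change of the 8 was -0.74, against -0.05 over all tested entries, and 6 of the 8 values were negative.

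**Figure D1:**
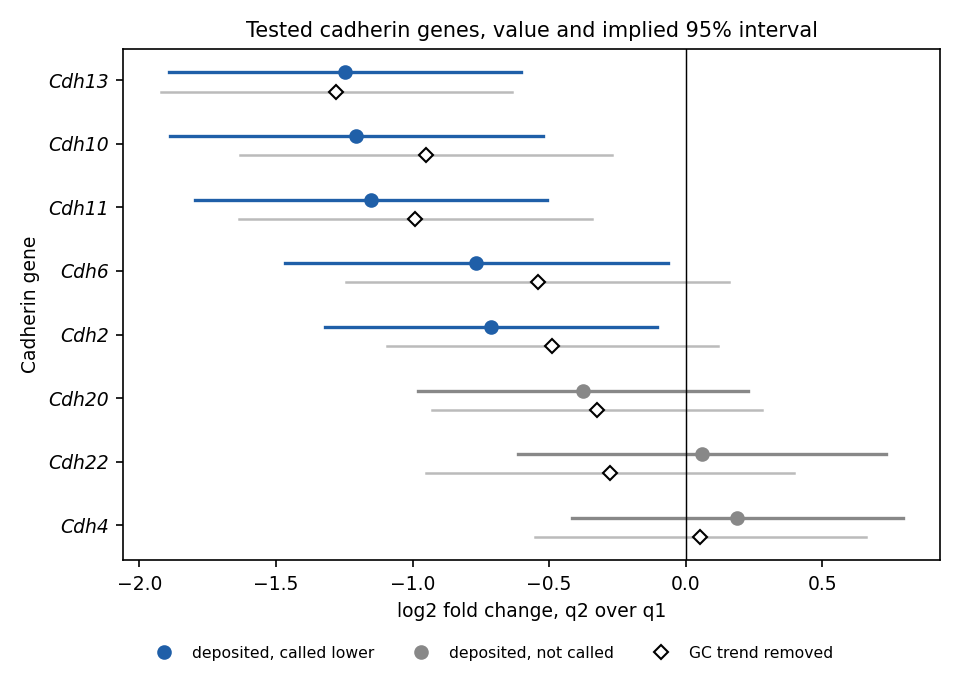
Log2 fold change (q2 over q1, x axis) of the 8 tested cadherins, as deposited (circles, blue where called) and with the GC trend removed (open diamonds), with 95% intervals from the error implied by the authors' fold change and statistic. As deposited, Cdh13, Cdh10, Cdh11, Cdh6 and Cdh2 lie below 0 with their whole interval, and those of Cdh20, Cdh22 and Cdh4 span 0.

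The family divides by sequence. Type I classical cadherins carry a His-Ala-Val (HAV) motif in their first extracellular domain, and type II cadherins do not. In the GENCODE coding sequences of the 10 genes, those 3 codons were found in Cdh1, Cdh2 and Cdh4 only, at codons 235, 238 and 245 of the longest coding transcript. The windows of 60 coding bases shown here, from GENCODE transcripts on GRCm38 and written 5′ to 3′, let the 2 kinds be compared at one place. Capitals mark the codons aligned with HAV. Cdh4 stands for type I, Cdh10, Cdh6 and Cdh11 for the type II genes called lower, Cdh22 for those not called, and Cdh13 for the atypical member.
Cdh4: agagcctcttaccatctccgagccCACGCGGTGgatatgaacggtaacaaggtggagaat
Cdh10: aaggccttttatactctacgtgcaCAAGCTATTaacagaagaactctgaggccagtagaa
Cdh6: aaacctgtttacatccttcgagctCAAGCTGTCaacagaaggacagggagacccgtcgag
Cdh11: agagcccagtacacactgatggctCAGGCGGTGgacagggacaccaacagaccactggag
Cdh22: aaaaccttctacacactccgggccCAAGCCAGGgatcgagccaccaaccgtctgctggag
Cdh13: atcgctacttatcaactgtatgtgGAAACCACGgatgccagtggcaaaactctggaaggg

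Over whole translated coding sequences, the 45 pairs of members ranged from 31.2% to 72.0% identical. The closest pair was Cdh6 and Cdh10, both on chromosome 15 and both called lower, at 72.0%. Cdh8 and Cdh11 came next at 67.7%, and their calls cannot be compared, since Cdh11 was called lower and Cdh8 was not tested. Cdh2 and Cdh4 followed at 67.4%, and only Cdh2 of this type I pair was called. Cdh20 and Cdh22, both not called, were 54.0% identical. Few reads could belong to more than 1 member. Over whole GENCODE transcripts, on either strand, only Cdh6 and Cdh20 had any stretch of 35 bases in common and no pair had one of 50.

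Cdh13, or T-cadherin, is the atypical member, held in the membrane by a lipid anchor and without a cytoplasmic tail for catenins. It had the lowest value of the 8. The authors' deposited table gives it a log2 fold change of -1.25, or 2.37-fold lower in q2 (Cuffdiff q = 0.00162). Fold change and statistic together imply an error of 0.33 on the log2 scale and a 95% interval of -1.89 to -0.60. Only 4.41% of tested entries had a lower log2 fold change, and 1.70% a larger absolute statistic. Cdh13 is also the longest gene of the 10, with a locus of 1041.3 kb on chromosome 8 (118283602 to 119324876 on GRCm38), 14 exons and 714 codons in its longest coding transcript. Its interval overlapped those of Cdh10, Cdh11, Cdh6 and Cdh2, so the order among the 5 is not resolved.

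Cdh10 is a type II cadherin known for its expression in brain. The authors' deposited table has it 2.31-fold lower in q2, with a log2 fold change of -1.21 (Cuffdiff q = 0.00162) and an implied interval of -1.89 to -0.52. Its locus covers 193.9 kb of chromosome 15 (18820329 to 19014234).

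Cdh11, or OB-cadherin, is a type II cadherin best known from bone and mesenchyme. In q2 it was 2.22-fold lower per the authors' deposited table, at a log2 fold change of -1.15 (Cuffdiff q = 0.00162), with an implied interval of -1.80 to -0.51. Its locus on chromosome 8 runs from 102632995 to 102785111. Cdh10, Cdh11 and Cdh13 share their q because 472 entries sit at the smallest p in the table, 5e-05, so q does not rank them.

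Cdh6, or K-cadherin, is a type II cadherin of kidney and of regional boundaries in the forebrain. Its difference was smaller: the authors' deposited table gives a log2 fold change of -0.77, or 1.70-fold lower in q2 (Cuffdiff q = 0.0317), with an implied interval of -1.47 to -0.06. The locus lies on chromosome 15 from 13032459 to 13173648. A tested entry without a symbol lay 2.2 kb beyond the 3′ end of that locus, inside the gene as GENCODE draws it (13029122 to 13030301). The authors' deposited table gives that entry -1.54 on the log2 scale, in the same direction, without a call (Cuffdiff q = 0.0703).

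Cdh2, or N-cadherin, is the type I cadherin of neural epithelium. It had a log2 fold change of -0.71 in the authors' deposited table, 1.64-fold lower in q2 (Cuffdiff q = 0.0250), with an implied interval of -1.32 to -0.11. Its locus lies on chromosome 18 from 16588877 to 16809049. Cdh2 and Cdh6 stand closer to the threshold than the other 3 called members, with a Cuffdiff q of 0.0250 and 0.0317 against 0.00162. For Cdh2 and Cdh6, 6.56% and 7.86% of tested entries had a larger absolute statistic, and 10.4% and 9.41% a lower log2 fold change.

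Among the 3 tested members that were not called, Cdh20 was the one with a negative value. This type II cadherin had a log2 fold change of -0.38 per the authors' deposited table (Cuffdiff q = 0.343), with an implied interval of -0.98 to 0.23, so a decrease as large as that of Cdh2 lies inside it. Cdh4, the R-cadherin of retina and brain, stood at 0.19 per the authors' deposited table (Cuffdiff q = 0.708), with an interval of -0.42 to 0.79. Cdh22, a type II cadherin found in brain, stood at 0.06 per the authors' deposited table (Cuffdiff q = 0.932), with an interval of -0.61 to 0.73. As deposited, the intervals of Cdh4 and Cdh22 leave out changes as large as those of Cdh10, Cdh11 and Cdh13. For Cdh22 this is read from the deposited values only: with the GC trend removed Cdh22 stood at -0.28, beside -0.95 for Cdh10. Whether any 2 members differ from each other was not tested. Cdh20 lies on chromosome 1 (104768819 to 104995481), and Cdh4 (179442478 to 179899375) and Cdh22 (165111507 to 165234737) lie on chromosome 2.

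Cdh1, or E-cadherin, is the type I cadherin of epithelia. The authors' deposited table lists it 1.61-fold higher in q2, a log2 fold change of 0.68, without a test. The 7 epithelial marker genes looked up beside it were not tested either: 6 had a log2 fold change deposited as 0, and Epcam was listed at 0 in q1. Cdh8, a type II cadherin of cortical layers and regions, is listed at 0 in q2 and has no fold. No direction is read from either gene. Both lie on chromosome 8, Cdh1 from 106603368 to 106670246 and Cdh8 from 99011887 to 99416471, and an entry named Gm15679 shares the whole locus of Cdh8.

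**Figure D2:**
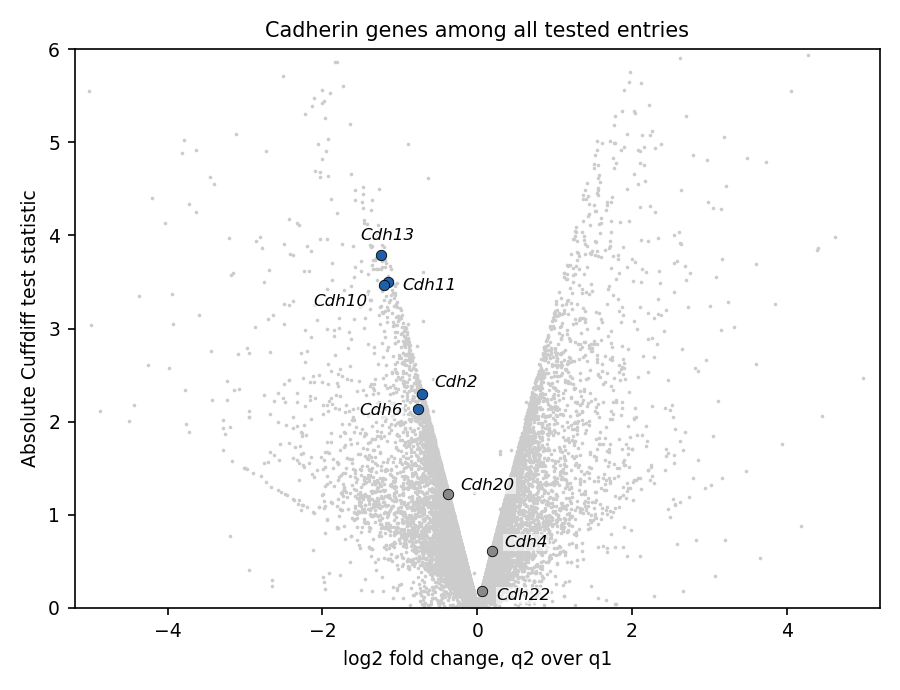
Log2 fold change (q2 over q1, x axis) and size of the Cuffdiff statistic regardless of sign (y axis) for 15139 tested entries in grey, with the 8 tested cadherins named and those called lower in blue; another 58 entries lie beyond the axes. The 5 called cadherins sit on the left flank of the cloud, where other entries reach larger statistics.

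Transcript composition moved with the comparison as a whole. Over 12026 tested genes with a single symbol, split into 4 equal groups by GC content, the median log2 fold change rose from -0.26 in the lowest group (31.2% to 46.1% GC) to 0.23 in the highest. The share called lower in q2 fell along that order, from 6.72% to 1.96%. Of the 5 cadherins called lower, Cdh10 (42.4% GC), Cdh6 (44.4%), Cdh2 (44.5%) and Cdh11 (45.4%) lie in the lowest group. Cdh13, at 51.7%, lies in the third. Of those not called, Cdh22 has the richest transcripts of the 8, at 62.2% GC.

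The trend was subtracted in 50 bins of GC content, and p was read from the relation between the authors' p and their statistic and adjusted again over these genes (recomputed q). Cdh13 then stood at -1.28 (recomputed q = 0.00457), Cdh11 at -0.99 (0.00457) and Cdh10 at -0.95 (0.00657), and these 3 kept their call. Cdh6 stood at -0.54 (recomputed q = 0.238) and Cdh2 at -0.49 (recomputed q = 0.204), and both lost it. Reading p from the statistic in the same genes with no trend removed, an alternative chosen after seeing the data, already took the call from Cdh6 (recomputed q = 0.0513) and left it with Cdh2 (0.0271). Cdh22 changed sign, to -0.28 (recomputed q = 0.697). What part GC content has in the differences was not tested.

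**Figure D3:**
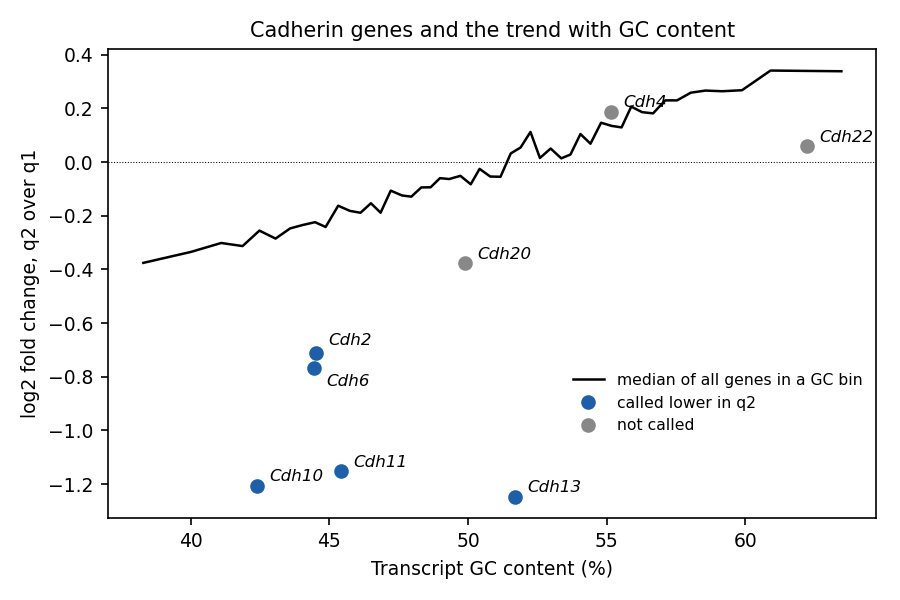
Transcript GC content (percent, x axis) against log2 fold change (q2 over q1, y axis), with the median of all genes in each of 50 GC bins as a line, cadherins called lower in blue and the others in grey. Cdh10, Cdh6, Cdh2 and Cdh11 lie where the line is below 0, and Cdh13 lies far below a line close to 0.

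Cdh2 and Cdh6 were sensitive to other choices as well. When all log2 fold changes were centred on their median, Cdh2 stood at -0.66 (recomputed q = 0.0554) and Cdh6 at -0.72 (recomputed q = 0.0695). With the trend over transcript length removed, Cdh2 stood at -0.62 (recomputed q = 0.0646) and Cdh6 at -0.66 (recomputed q = 0.0991). The differences thus stayed close to the deposited -0.71 and -0.77 while q crossed the threshold. Both alternatives also read p from the statistic. Over single-symbol genes that step alone, with no trend removed, gave a recomputed q of 0.0513 for Cdh6 and 0.0271 for Cdh2. How much of the lost call of Cdh6 comes from centring or length was therefore not tested. A normal distribution of the statistic gave wider p-values than the authors' own, and the q recomputed from it was 0.322 for Cdh2 and 0.408 for Cdh6. Cdh10, Cdh11 and Cdh13 passed under each of the 10 alternatives, with a q of at most 0.0230.

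Promoter windows, from RefSeq on GRCm38.p6, were at hand for 5 of the 10 members: Cdh6, Cdh8, Cdh10, Cdh20 and Cdh22. Foxp1 is a forkhead factor, so the forkhead core motifs TGTTTAC and TATTTAC were searched on both strands in the 250 bases before and 50 bases after the start. Neither was found in any of the 5, and 3.65% and 3.04% of 32851 promoters of the same length hold them. The E-box CANNTG, the kind of site bound by the repressors of Cdh1, was found 5 times for Cdh10, 2 times for Cdh8, once for Cdh6 and for Cdh20, and not for Cdh22, and 72.3% of promoters hold it. Its form CACCTG, which overlaps CANNTG, was found in none of the 5 and in 20.2% of promoters. A match is a description of letters, and its absence from these windows says nothing of binding. The windows of Cdh10 and Cdh6, called lower, and of Cdh22, not called, are given 5′ to 3′ on the strand of the gene, with CANNTG in capitals. They are chr15:18820079-18820378 (plus strand), chr15:13173626-13173925 (minus strand) and chr2:165234688-165234987 (minus strand). The Cdh10 window, placed by RefSeq, lies inside the gene as GENCODE draws it, from 18818947. Its motifs and GC content are therefore not those of the 5′ end that GENCODE gives.
Cdh10: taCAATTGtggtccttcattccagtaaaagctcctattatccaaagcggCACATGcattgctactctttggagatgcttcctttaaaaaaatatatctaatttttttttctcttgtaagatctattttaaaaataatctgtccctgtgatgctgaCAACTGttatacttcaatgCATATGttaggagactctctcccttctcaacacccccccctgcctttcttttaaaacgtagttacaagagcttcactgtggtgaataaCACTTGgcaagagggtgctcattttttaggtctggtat
Cdh6: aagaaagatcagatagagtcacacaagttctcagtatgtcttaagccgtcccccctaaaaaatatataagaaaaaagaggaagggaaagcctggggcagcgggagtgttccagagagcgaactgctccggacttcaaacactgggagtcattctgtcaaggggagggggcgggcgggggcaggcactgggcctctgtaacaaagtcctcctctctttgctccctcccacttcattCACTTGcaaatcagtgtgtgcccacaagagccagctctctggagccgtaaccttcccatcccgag
Cdh22: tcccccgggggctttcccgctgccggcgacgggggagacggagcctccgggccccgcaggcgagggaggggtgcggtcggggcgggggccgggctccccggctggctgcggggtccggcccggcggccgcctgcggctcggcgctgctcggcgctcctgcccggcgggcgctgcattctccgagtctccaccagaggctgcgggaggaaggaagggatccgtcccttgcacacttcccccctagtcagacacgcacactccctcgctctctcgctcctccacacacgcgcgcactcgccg

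GC content of the promoter windows was 37.7% for Cdh10, 50.7% for Cdh20, 53% for Cdh6, 62.3% for Cdh8 and 76.3% for Cdh22, against a median of 52.7% and quartiles of 45.7% and 61.7% over all promoters. Cdh10 and Cdh22 are the lowest and highest of the 5 here, and Cdh8 has a GC-rich window beside transcripts at 42.4% GC.

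Short entries without a symbol lay just before the authors' loci of Cdh10 and Cdh20, and both overlap the 5′ end of the gene as GENCODE draws it. In the authors' deposited table the one before Cdh10 had a log2 fold change of -0.12 (Cuffdiff q = 0.920), beside -1.21 for the Cdh10 entry. The one before Cdh20 had -0.30 (Cuffdiff q = 0.744), beside -0.38 for the Cdh20 entry. Neither was called.

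Entries around the cadherin loci were compared with the cadherins. Within 1 Mb of the 10 loci lay 133 tested entries, 3 of them the entries without a symbol described above for Cdh6, Cdh10 and Cdh20. Most of them lay around members that were not called or not tested: 43 near Cdh1, 35 near Cdh22, 20 near Cdh4 and 8 near Cdh20. The pooled counts therefore say little of the surroundings of the cadherins called lower. By Cuffdiff's q, 0 of the 133 were called lower in q2 and 8 (6.02%) higher, where 3.39% and 4.24% of all tested entries were. At an unadjusted p under 0.05, 5 (3.76%) were lower and 18 (13.5%) higher, beside 9.74% and 9.46% of all tested entries. Their median log2 fold change was 0.09. No tested entry lay within that distance of Cdh2, Cdh8 or Cdh11, and the only one near Cdh10 was the short entry just described. Near Cdh6, 1 of 7 was called: Pdzd2, at 0.83 per the authors' deposited table (Cuffdiff q = 0.0483). Near Cdh13, 1 of 19 was called: Crispld2, at 3.72 per the authors' deposited table (Cuffdiff q = 0.00162). These 2 neighbours were singled out after their values were seen, and both were higher beside a cadherin that was lower.

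**Figure D4:**
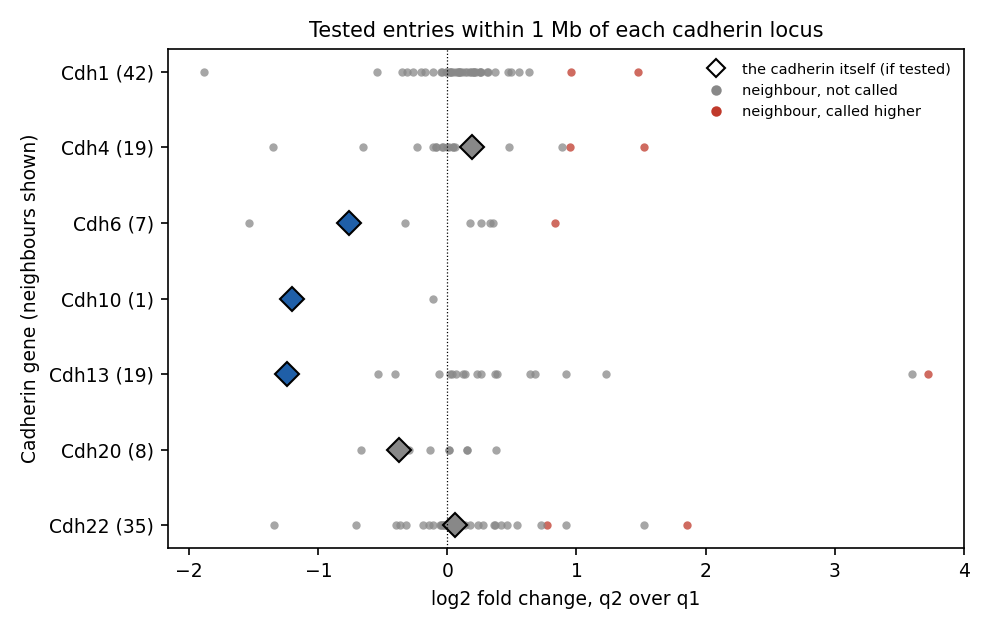
Log2 fold change (q2 over q1, x axis) of tested entries with a finite value within 1 Mb of a cadherin locus, by cadherin (y axis, with the number shown), neighbours called higher in red, and tested cadherins as diamonds, blue where called lower. Cdh13 lies below all 19 of its neighbours, but only just below Sdr42e1, which stood at -1.24 (not called) beside -1.25 for Cdh13. Cdh6 lies below all of its 7 but 1, which is the entry inside the Cdh6 gene as GENCODE draws it. No neighbour was called lower.

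The rest of the cadherin family gave few values. Of the 13 other numbered Cdh entries 2 were tested, Cdh19 and Cdh24. Their log2 fold changes were 0.18 (Cuffdiff q = 0.811) and 0.01 (Cuffdiff q = 0.985) in the authors' deposited table. Of the other 11, 5 were listed at 0 in a condition. In a wider list with desmosomal cadherins, calsyntenins and cadherin-related genes, 6 of 31 entries were tested. Their median log2 fold change was 0.42, and 5 of the 6 values were positive. By Cuffdiff's q 0 were called, where 7.63% of all tested entries were. At an unadjusted p under 0.05 there were 2, beside 9.74% lower and 9.46% higher among all tested entries. The largest statistic there was that of Dsc1, a desmosomal cadherin, with 1.35 per the authors' deposited table (Cuffdiff q = 0.0516). Dsc1 passed with the GC trend removed, at 1.63 (recomputed q = 0.00657), and also with p read from the statistic and no trend removed (recomputed q = 0.0461), after centring (0.0294), with the length trend removed (0.0269), over single-symbol entries (0.0440) and over entries whose locus overlaps no other (0.0491). It did not pass with a normal distribution of the statistic (recomputed q = 0.372) or over entries with a finite fold change (0.0524). Nor did it pass with q under 0.01 or with the minimum fold change, and its implied error was 0.61.

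Among the partners of cadherins inside the cell, calls in q2 were mostly higher. In the list of catenins and actin linkers, 16 of 21 entries were tested, and 4 (25%) were called higher and 1 (6.25%) lower, where 4.24% and 3.39% of all tested entries were. The median log2 fold change of the list was 0.11, against -0.05 over all tested entries. Beta-catenin (Ctnnb1), which binds the cadherin tail, had -0.22 (Cuffdiff q = 0.669) in the authors' deposited table, and p120-catenin (Ctnnd1) had -0.00 (Cuffdiff q = 0.998). The 1 lower gene was Ctnna2, the neural alpha-catenin that ties the complex to actin, at -1.33 in the authors' deposited table, or 2.51-fold lower (Cuffdiff q = 0.00719). Ctnna2 was lower as Cdh2 and Cdh10 were, and the widely expressed alpha-catenin Ctnna1 stood at 0.13 (Cuffdiff q = 0.813) in the authors' deposited table. An entry named 6330415B21Rik shares the locus of Ctnna2 and was not tested.

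The 4 higher linkers were Actn1, Vcl, Mllt4 and Lima1. Actn1, an actin crosslinker, was at 1.24 in the authors' deposited table, or 2.36-fold higher in q2 (Cuffdiff q = 0.00162). Vinculin (Vcl), which joins stretched alpha-catenin, was at 0.65 (Cuffdiff q = 0.0473), afadin (Mllt4), the linker of nectins, at 0.66 (Cuffdiff q = 0.0397), and Lima1, which binds alpha-catenin and actin, at 0.66 (Cuffdiff q = 0.0444), all in the authors' deposited table. These 3 stand near the threshold. Reading p from the statistic with no trend removed ended the calls of Vcl (recomputed q = 0.0513), Mllt4 (0.0531) and Lima1 (0.0531). With the GC trend removed their log2 fold changes were 0.75, 0.75 and 0.68, no smaller than as deposited, and Vcl and Mllt4 passed (recomputed q = 0.0238 for both) while Lima1 did not (0.0621). With a normal distribution of the statistic, Actn1 was the only gene of all the pathway lists to pass.

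Nectins are the immunoglobulin-type receptors that build junctions beside cadherins. In their list 11 of 14 entries were tested and 2 were called higher, where 4.24% of all tested entries were. The median log2 fold change of the list was -0.16. Pvr had 0.98 (Cuffdiff q = 0.0214) and nectin-1 (Pvrl1) had 0.83 (Cuffdiff q = 0.0219) in the authors' deposited table. Pvrl1 fell to 0.49 and lost its call with the GC trend removed. In the list of apical polarity and small GTPase genes, 16 of 19 were tested and 1 was called: Numbl, an endocytic adaptor of radial glial junctions, at 0.95 per the authors' deposited table (Cuffdiff q = 0.0338). It stood at 0.68 with the GC trend removed and was then not called. Prkcz, an atypical protein kinase C of the Par complex, stood at -0.87 (Cuffdiff q = 0.0816) in the authors' deposited table.

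As in the wider cadherin list, no gene was called by Cuffdiff's q in 3 further lists. Among all tested entries 7.63% were called in either direction, so nothing is read from the absence of calls in lists this small. At an unadjusted p under 0.05, 9.74% of all tested entries were lower and 9.46% higher. Of the proteases that process cadherins 15 were tested, with a median of 0.02 and 4 at an unadjusted p under 0.05. Mmp2 stood at 1.29 (Cuffdiff q = 0.0883) and Furin, which cleaves the cadherin propeptide, at 0.62 (Cuffdiff q = 0.0828) in the authors' deposited table. Of the turnover and trafficking genes 10 were tested, with a median of -0.12 and 2 at an unadjusted p under 0.05. Rab5a, the early endosome GTPase, stood at -0.65 (Cuffdiff q = 0.0506) and Pip5k1c at 0.47 (Cuffdiff q = 0.184) in the authors' deposited table. Of the receptors and phosphatases that bind cadherins 13 were tested, with a median of -0.07 and 2 at an unadjusted p under 0.05. Fgfr2 stood at -0.56 (Cuffdiff q = 0.110) and Lrp5 at 0.48 (Cuffdiff q = 0.214) in the authors' deposited table.

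Of the transcription factors of the switch between E-cadherin and N-cadherin, 6 of 17 were tested and 1 was called higher, with a median of -0.16. This was Tcf3, an E protein that binds E-boxes, at 0.76 per the authors' deposited table (Cuffdiff q = 0.0188), and it was not called with the GC trend removed (0.42). Zeb1, a repressor of Cdh1, stood at -0.38 (Cuffdiff q = 0.349) in the authors' deposited table. Over the 8 pathway lists together, 9 of 93 tested genes were called, 8 higher and 1 lower, where 4.24% and 3.39% of all tested entries were.

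**Figure D5:**
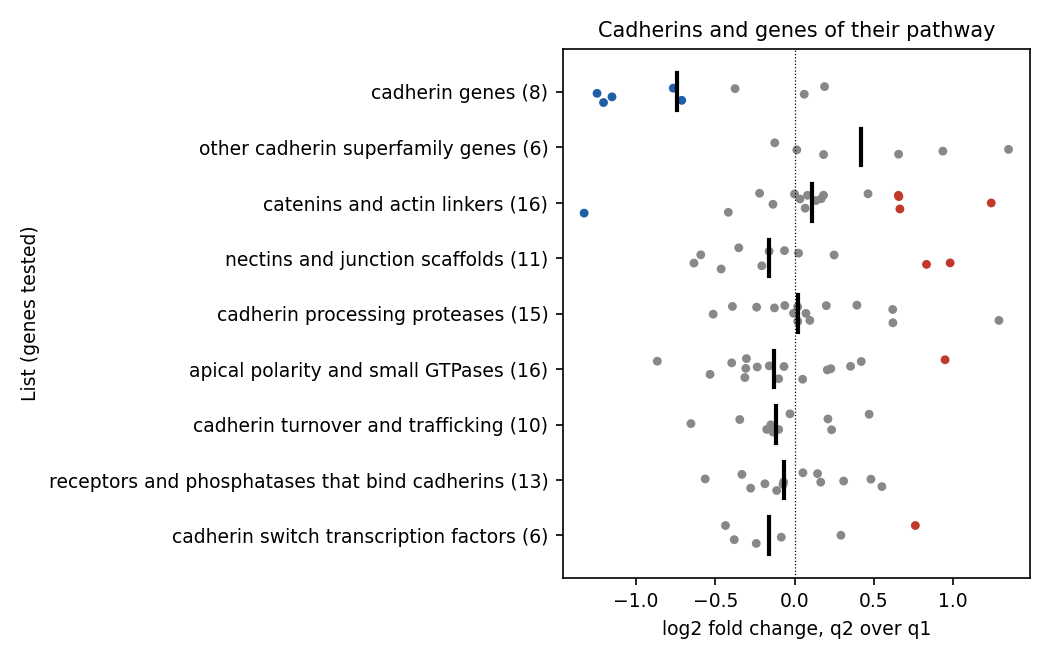
Log2 fold change (q2 over q1, x axis) of every tested gene in the cadherin list and the 8 pathway lists (y axis), with each list's median as a bar, genes called higher in red and genes called lower in blue. The cadherins have their median at -0.74 and the wider cadherin family, with 6 genes tested, at 0.42. The medians of the other 7 lists lie between -0.16 and 0.11. Since the cadherins were chosen with their values known, nothing is read from these differences.

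Markers of cell types were looked up beside the cadherins. Of the neural stem cell markers 7 of 8 were tested. In the authors' deposited table Sox2 stood at 0.04 and Pax6 at -0.10, both not called by Cuffdiff, while Nes was called higher at 0.75 and Fabp7 (-1.13) and Hes5 (-0.82) lower. Markers of other neural cells moved too. Of the astrocyte markers 4 of 6 tested were called lower, with a median of -1.02. Among all tested entries 3.39% were called lower and 4.24% higher. Pdgfra, a marker of oligodendrocyte precursors, was called lower by Cuffdiff, and the authors' deposited table gives it at -2.83. Of the same list Olig2 (-0.53, Cuffdiff q = 0.141) and Cspg4 (-0.27, Cuffdiff q = 0.538) were not called in the authors' deposited table. Of the neuronal markers 1 of 3 tested was called, Syt1, higher at 1.48 in the authors' deposited table. Few markers of fibroblasts (2 of 8), endothelium (1 of 6) and microglia (2 of 6) were tested. By Cuffdiff's q 0 of these 5 were called, nor had any an unadjusted p under 0.05. Since only 7.63% of all tested entries were called in either direction, nothing is read from the absence of calls among 5. Summed marker levels in each group were not used here. The part of these cell types in the lower cadherin values was not tested.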

How the data were processed

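RNA was measured in 4 libraries in 2 groups, taken from the sample labels. The tools were TopHat2 2.0.9, Cufflinks 2.2.1 and Cuffdiff, with genome build mm10 (GRCm38), per the submitters' processing notes. Not given in the sources used here are the Cuffdiff version, the annotation, filters and strand settings. The authors deposited 1 comparison of 26815 entries. Its log2 fold changes are q2 over q1, per the file headers. A score, the test statistic, and a p-value and q-value follow for each entry, all deposited by the authors. Benjamini-Hochberg adjustment of the deposited p-values over the 15315 tested entries gave the same q-values to within 0.001 of their size. With no group tied to q1 or q2, the 2 columns of per-condition values were left unused, so levels were not compared and the depth is unknown.

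Members and lists were chosen with earlier results of these data known. Members, called pathway genes, and enough of the largest statistics to name 2 genes a list were named by rule. Results of 1 marker list are not reported here in full. The error is the fold change divided by the statistic, and intervals are 1.96 errors either side on the log2 scale, which assumes a normal distribution that the authors' p-values do not follow. Starts were converted to count from 1. Transcripts, GC content (12026 genes, 99.5% of those eligible) and coding sequences came from GENCODE M21 on GRCm38, and promoters from RefSeq on GRCm38.p6. Trends were removed in 50 bins. For GC this step was tested on simulated data with a linear trend and normal p-values. The length trend and the reading of p from the authors' statistic were not part of that test. Alternatives were other q thresholds, a minimum fold change, normal p-values, centring, 3 subsets of entries, GC and length, and 1 added after seeing the data. Python 3.11.15, numpy 2.4.6, pandas 2.3.3, scipy 1.17.1, scikit-learn 1.9.0, Biopython 1.88 and matplotlib 3.10.9 were used.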

Additional observations from a re-analysis of the deposited data

How the results depend on the processing

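The number of cadherins called, 5 by the authors' q under 0.05, was 3 with q under 0.01, with an absolute log2 fold change of at least 1, with a normal p, after centring, and with the GC or the length trend removed. It stayed at 5 with q under 0.1 and over single-symbol entries, finite fold changes or entries whose locus overlaps no other, and it was 4 when p was read from the statistic with no trend removed. Cdh10, Cdh11 and Cdh13 were called under each of the 10 alternatives and Cdh2 and Cdh6 under 4. Cdh22 reversed, to -0.28, with the GC trend removed. Of the genes of the pathway lists 9 were called, against 2 with q under 0.01, 17 with q under 0.1, 2 with the minimum fold change and 1 with a normal p. Over all tested entries the count of 1168 became 667 with q under 0.01, 687 with the minimum fold change and 425 with a normal p. Where the threshold is stricter its construction lowers the count, and for the other alternatives the cause was not tested. No paired analysis was possible because the deposited table holds no value per library, and for the same reason no library could be left out. Depth is unknown, so no limit from depth can be given.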
